A study of Mus musculus with 19 samples.

Results

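Levels of 10 genes of microglia, the macrophages that live within brain tissue, were followed in embryonic neocortex. The members were *Csf1r*, *Mpeg1*, *Dock2*, *Fcrls*, *C1qa*, *C1qb*, *C1qc*, *Cx3cr1*, *Trem2* and *Apoe*, 10 of the 51912 genes in each count file. They were chosen by their role, as microglial markers and phagocyte genes, and by their low counts, with their higher levels in cKO embryos already known. Their values in cKO, and how many of them a fit across all genes called there, are therefore a description and no evidence of a change. The comparison of dKO with ctrl is tested, but its ctrl embryos were also part of that known contrast. The test is thus not independent of the choice of members.

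The libraries came from E13.5 cerebral cortex of mice on a mixed C57BL/6 and 129 background, with 1 library per embryo. The ctrl group held 7 embryos, for which the labels give no genotype beyond control. The cKO group held 5 embryos with an *Emx1*-Cre conditional mutation of *Ino80*, which encodes the catalytic subunit of a chromatin remodeler. The dKO group held 7 embryos in which *Emx1*-Cre acted on conditional alleles of both *Ino80* and *Trp53*, the gene of p53. *Emx1*-Cre recombines in cortical progenitors and so in the neurons and glia that descend from them. Microglia do not descend from these progenitors, so Cre does not target them. Counts of whole tissue assign no read to a cell type, so which cells made the members' transcripts was not tested. RNA of whole cortex was sequenced, so fewer cells of a type and less RNA per cell cannot be told apart.

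Microglia arise from yolk-sac macrophages that enter the neural tube before most neurons are born, and their survival needs signalling through the CSF1R receptor. They are spread thinly in the early cortex, take up dying cells and change their expression as they do so. *Apoe* encodes the apolipoprotein that carries cholesterol and other lipids between brain cells, and it is made by radial glia and astrocytes as well as by phagocytes.

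Between 820915 and 8095810 deduplicated reads fell on genes in each library. Levels are given in counts per 1000000 counts (CPM), scaled with edgeR's TMM factors, and 3 counts stood for 0.369 to 3.71 CPM in a library. The shallowest libraries were cKO embryo D and dKO embryo G. Counts over the whole *Ino80* gene were 121 ± 8.62 CPM in 7 ctrl embryos (SD), 166 ± 14.7 in 5 cKO embryos (SD) and 186 ± 13.7 in 7 dKO embryos (SD). Those over *Trp53* were 43.7 ± 5.21 CPM in ctrl (36.7 to 49.9), 39.2 ± 4.66 in cKO and 34.6 ± 4.92 in dKO (26.9 to 42.4), so that the dKO and ctrl ranges overlapped. The loxP sites of *Ino80* flank a few exons and the counts cover all exons, so its values do not check the deletion. Which exons the *Trp53* sites flank is not given in the sources used here, so its deletion was not checked either. The deposited counts do not separate cells, and the 9 members other than *Apoe* summed to between 9 and 121 counts in a library. Embryos are called by genotype and letter, and p-values measure the spread between embryos of a genotype. The main fits hold no term for litter or sex, so littermates count as separate embryos. The dKO embryos came from litters 1 and 2, those of litter 2 all male, and cKO embryo C was the only male of its group.

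All 10 members were higher in every cKO embryo than in every ctrl embryo, and in dKO all 10 overlapped ctrl. Summed over the 9 microglial members, the level was 10.6 ± 3.17 CPM in 7 ctrl embryos (SD), 39.0 ± 5.31 in 5 cKO embryos (SD) and 9.52 ± 1.02 in 7 dKO embryos (SD). Complete separation upward between cKO and ctrl was seen for 1.66% of all genes with at least 1 count, and the members had been chosen with this contrast in view. Separation of dKO from ctrl was seen for 0.567% of these genes upward and 1.41% downward, and for 0 of the 10 members. Ratios of mean CPM between cKO and ctrl ran from 2.29 for *Cx3cr1* to 10.4 for *C1qa* over the 9 members with a count in ctrl. *Trem2* had no count in any ctrl library.

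**Figure D1:**
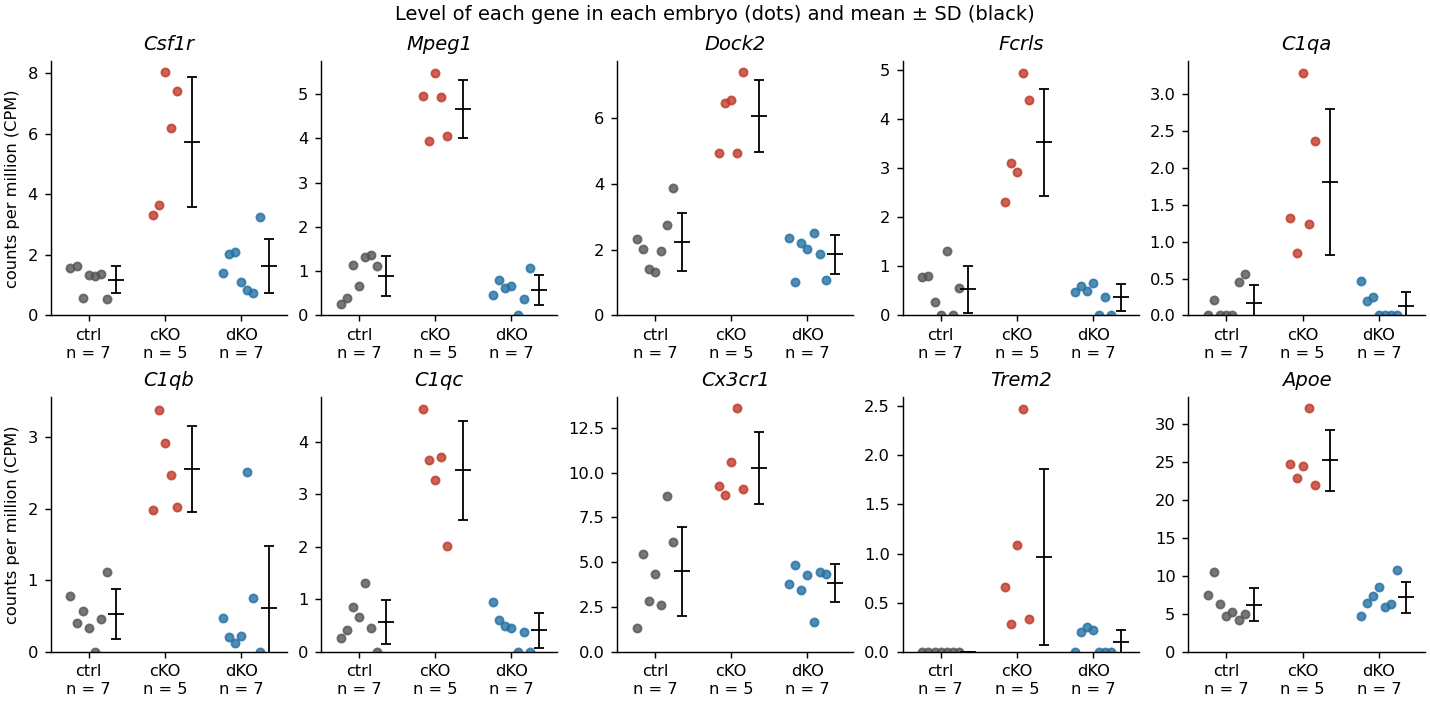
Each dot is 1 embryo, plotted as CPM for each of the 10 genes in ctrl (7 embryos), cKO (5) and dKO (7), and the black bar gives the mean with its SD. In all 10 panels the lowest cKO dot lies above the highest ctrl dot, most narrowly for *Cx3cr1* (8.74 against 8.69). The ranges of dKO and ctrl overlap in every panel. Some dKO dots lie above the highest ctrl dot, as for *Csf1r* (3.24 against 1.62), *C1qb* (2.51 against 1.11) and *Trem2* (0.246 against 0).

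*Csf1r* encodes the receptor for the growth factors CSF1 and IL-34, on which microglia depend. The ctrl embryos ranged from 0.556 to 1.62 CPM with a median of 1.33. The cKO embryos A to E had 3.30, 3.66, 8.02, 6.18 and 7.42 CPM, and the dKO embryos ranged from 0.743 to 3.24 with a median of 1.41. Embryos C, D and E were the high cKO samples, and dKO embryo G, with 3 counts, came close to the lowest cKO embryo. The pooled level in cKO was 4.41-fold that of ctrl (exact 95% counting interval 2.78 to 7.20). Exons of *Csf1r* share 873 bases with the antisense gene *Hmgxb3* in the GENCODE M21 annotation, and the strand setting of the counting is not given in the sources used here.

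*Cx3cr1* encodes the receptor for fractalkine (CX3CL1), a chemokine made by neurons, and had the most counts of the microglial members. The ctrl embryos ranged from 1.29 to 8.69 CPM with a median of 4.31. The 5 cKO embryos A to E had 9.23, 8.74, 10.6, 13.6 and 9.11 CPM, and the dKO embryos lay between 1.67 and 4.84 with a median of 4.26. The groups ctrl and cKO were separated by 0.05 CPM, less than 1 count in any library. The highest ctrl embryos were H and I, both of litter 7, at 8.69 and 6.11 CPM. Of the reads placed on a gene or outside genes, 13.9% and 15.4% lay outside genes in these 2 libraries, against at most 8.14% in the other 5 ctrl libraries and 7.41% to 11.9% in cKO, and the part of this in the *Cx3cr1* values was not tested. The pooled level in cKO was 2.25-fold that of ctrl (1.70 to 2.99). Exons of *Cx3cr1* share 78 bases with the antisense gene *Gm33858*.

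*Trem2* encodes a lipid-sensing receptor of microglia that binds APOE. It had 0 counts in all 7 ctrl libraries, which allows a pooled level of up to 0.144 CPM if 3 counts are taken as the limit. The cKO embryos A to E had 2, 1, 3, 2 and 1 counts, and the 7 dKO libraries held 4 counts in total, in embryos B, C and D. The pooled level in cKO was 0.687 CPM, 4.78-fold the limit of 3 counts over the ctrl libraries, or 3.96-fold without cKO embryo D. These values leave out the counting error of the 9 cKO counts. The exact 95% counting interval of the pooled ratio of cKO to ctrl starts at 3.14. No cKO library exceeded 3 counts, so the separation of the groups rests on very few molecules.

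Among intracellular and surface members of phagocytes, *Mpeg1* encodes a pore-forming protein of macrophage vesicles. Its level was 0.894 ± 0.448 CPM in 7 ctrl embryos (SD), between 0.258 and 1.37 with a median of 1.11. The cKO embryos A to E had 4.95, 3.94, 5.47, 4.94 and 4.05 CPM, and the dKO embryos ranged from 0 to 1.08 with a median of 0.614. The 5 cKO embryos lay close together, with an SD of 0.652 CPM where counting alone gives 1.54. The pooled ratio of cKO to ctrl was 5.97 (3.40 to 11.1).

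*Dock2*, an activator of the GTPase RAC in blood-derived cells, ranged from 1.33 to 3.89 CPM in ctrl with a median of 2.03. In cKO embryos A to E it was at 4.95, 6.48, 6.56, 4.94 and 7.42 CPM, and in dKO between 1.01 and 2.51 with a median of 2.02. The closest embryos of ctrl and cKO were ctrl I at 3.89 and cKO D at 4.94 CPM, the latter with 4 counts. The pooled ratio of cKO to ctrl was 2.97 (2.03 to 4.38). Its exons share 460 bases with the antisense gene *4930403D09Rik*.

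*Fcrls*, an Fc receptor-like gene used as a microglial marker, had 0 to 4 counts in the ctrl libraries, or 0.533 ± 0.478 CPM (SD, n = 7). The cKO embryos A to E had 2.31, 3.10, 2.92, 4.94 and 4.39 CPM from 7, 11, 8, 4 and 13 counts. The dKO embryos ranged from 0 to 0.672 CPM with a median of 0.471. Both ctrl and dKO held 2 embryos with no count, and cKO held none. The pooled ratio of cKO to ctrl was 6.22 (3.16 to 13.4).

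*C1qa*, *C1qb* and *C1qc* encode the 3 chains of C1q, the recognition protein that starts the classical complement pathway, and lie next to each other on chromosome 4. Summed over the 3 chains, the level was between 0.995 and 1.67 CPM in ctrl with a median of 1.31. The cKO embryos held between 6.41 and 9.48 CPM with a median of 7.89, and the dKO embryos between 0 and 2.51 with a median of 1.01. The highest ctrl embryo and the lowest cKO embryo were thus well apart for the summed chains. The pooled ratio of cKO to ctrl for the summed chains was 6.56 (4.20 to 10.6), from 103 and 25 counts.

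Taken chain by chain, *C1qa* had 4, 3, 9, 1 and 7 counts in cKO embryos A to E and 3 counts in all of ctrl, with a pooled ratio of 12.7 and an interval from 3.87 to 66.1. *C1qb* was at 1.98, 3.38, 2.92, 2.47 and 2.02 CPM in cKO and between 0 and 1.11 in ctrl, with a ratio of 4.92 (2.43 to 10.8). *C1qc* was at 4.62, 3.66, 3.28, 3.71 and 2.02 CPM in cKO and between 0 and 1.31 in ctrl, with a ratio of 6.51 (3.32 to 14). The intervals of the 3 ratios overlap. In dKO the medians were 0 CPM for *C1qa*, 0.224 for *C1qb* and 0.448 for *C1qc*. *C1qb* was the member for which dKO and cKO overlapped, because dKO embryo E had 3 counts, 2.51 CPM in a shallow library.

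*Apoe* was the most abundant member. The ctrl embryos ranged from 4.11 to 10.5 CPM with a median of 5.23. The cKO embryos A to E had 24.7, 22.8, 24.4, 32.1 and 21.9 CPM, and the dKO embryos lay between 4.71 and 10.8 with a median of 6.45. The highest ctrl embryo was B, from 52 counts, and every cKO embryo was far above it. The mean was 6.18 ± 2.22 CPM in 7 ctrl embryos (SD), 25.2 ± 4.03 in 5 cKO embryos (SD) and 7.15 ± 2.00 in 7 dKO embryos (SD). The pooled ratio of cKO to ctrl was 3.50 (2.86 to 4.29), below the ratio of 4.08 of the means, because the deepest ctrl library also had the highest level.

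Per kilobase of exon, with all annotated exons of a gene merged, the mean level in ctrl was 2.89 CPM for *Apoe*, 0.994 for *Cx3cr1* and 0.479 for *C1qb*. The merged length can exceed that of the transcripts made, which lowers the value, so the order of genes is approximate. The other members with a count lay between 0.167 for *C1qa* and 0.292 for *C1qc*, differences that are small beside the spread of these low counts. In cKO the order was *Apoe* at 11.8 CPM per kilobase, *C1qb* at 2.35, *Cx3cr1* at 2.27, *C1qc* at 1.79, *C1qa* at 1.74 and *Fcrls* at 1.51. *Mpeg1* at 1.08, *Csf1r* at 0.990, *Dock2* at 0.531 and *Trem2* at 0.196 followed. Within a genotype, the SD between embryos was at or below the spread that counting alone gives in 19 of 29 combinations of member and genotype. It exceeded that spread by more than 1.5 times for *Cx3cr1* in ctrl (2.51 against 1.32 CPM) and for *C1qb* in dKO (0.873 against 0.537 CPM).

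Promoters are shown because the members were higher together in cKO and because PU.1, a transcription factor encoded by *Spi1* that directs macrophage development, is known to bind a purine-rich core. The motif GAGGAAG was searched on both strands in the 250 bases before each RefSeq gene start of GRCm38.p6. Windows were present for 8 members with 10 starts in all, and 4 of these 8 genes held the motif. Among all genes of the table, 12% held it in at least 1 window (3244 of 27025), and among all windows 10.6%. The windows with a match were chr11:34783906-34784155 for *Dock2*, chr3:87263525-87263774 for *Fcrls* and chr4:136892915-136893164 for *C1qc*, all on the minus strand, and chr17:48346151-48346400 for *Trem2* on the plus strand. In the M21 annotation 136 bases of the *Fcrls* window and 151 of the *C1qc* window lie in exons, so these windows are not wholly upstream of transcription and are not shown. The others, with 0 exon bases, are written 5′ to 3′ on the strand of the gene up to the base before the start, with the matching letters in capitals.
Dock2: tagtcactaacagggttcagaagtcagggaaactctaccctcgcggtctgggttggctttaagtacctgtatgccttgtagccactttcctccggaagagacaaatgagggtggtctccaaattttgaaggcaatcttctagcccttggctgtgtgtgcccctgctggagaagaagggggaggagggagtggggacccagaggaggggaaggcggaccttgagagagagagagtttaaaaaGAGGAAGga
Trem2: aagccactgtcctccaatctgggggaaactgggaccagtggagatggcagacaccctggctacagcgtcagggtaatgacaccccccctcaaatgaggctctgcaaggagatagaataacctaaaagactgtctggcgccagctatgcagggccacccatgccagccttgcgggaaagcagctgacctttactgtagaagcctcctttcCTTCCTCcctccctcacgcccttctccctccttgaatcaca
The match lay 9 bases before the start in *Dock2* and 144 bases before it in *Fcrls*, on the strand of the gene. In the M21 annotation *Fcrls* extends to base 87263738 of chromosome 3, so there its match falls inside the gene. In *C1qc* and *Trem2* the letters are those of the other strand, CTTCCTC, at 194 and 41 bases before the start. The windows of *Mpeg1*, *C1qb*, *Cx3cr1* and *Apoe* held no match. All 250 bases of the *Cx3cr1* window, and 173 bases of 1 *Apoe* window, lie in M21 exons. The *Cx3cr1* window thus says nothing of sequence outside exons, and the counts of genes with the motif include such windows. A match is a description of letters, and no binding was measured. *Spi1* itself had 0.244 ± 0.261 CPM in 7 ctrl embryos (SD), 0.891 ± 0.407 in 5 cKO embryos (SD) and 0.266 ± 0.348 in 7 dKO embryos (SD). Its log2 fold change in cKO was 1.46 (adjusted p = 0.291 by edgeR's quasi-likelihood test over genes with at least 1 count).

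As a description, edgeR's quasi-likelihood test across all genes, at a false discovery rate of 0.001, called 4 members in cKO against ctrl among the 5 that filterByExpr kept. These were *Apoe*, *Csf1r*, *Dock2* and *Mpeg1*, and *Cx3cr1* was tested and not called. Of all genes tested, 1.06% were called upregulated, and nothing is read from the members' share because the rule had used this contrast. The filter keeps such genes through their cKO counts, so a fit over all genes with at least 1 count was made to include all 10. It called 6 members, with *Fcrls* and *C1qc* in addition, against 1.02% of genes, and the members' median log2 fold change was 2.34 where that of all genes was 0.05. Without cKO embryo C, or without cKO embryo E, 2 members were called, *Apoe* and *Mpeg1*, and with litter as a block 2 were called, *Apoe* and *Csf1r*.

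Sequencing batch and litter could be followed for the summed level and for *Apoe*. The ratio of mean summed CPM in cKO to that in ctrl was 3.68 over all embryos, 4.26 within sequencing batch 1 and 3.19 within batch 2. For *Apoe* it was 4.08 over all, 3.32 in batch 1 and 5.65 in batch 2. Batch 2 held few embryos of either genotype. Litters 4, 5 and 7 held both genotypes. In litter 4 the summed level was 34.1 CPM in the cKO embryo and 7.67 in the ctrl embryo, in litter 5 it was 44.1 against 8.63 and 9.82, and in litter 7 it was 39.1 against 15.5 and 13.9. Each cKO embryo was above its ctrl littermates in all 3 litters, and the same was so for *Apoe*, with 22.8 against 6.25, 24.4 against 4.64 and 5.23, and 21.9 against 4.11 and 5.00 CPM.

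**Figure D2:**
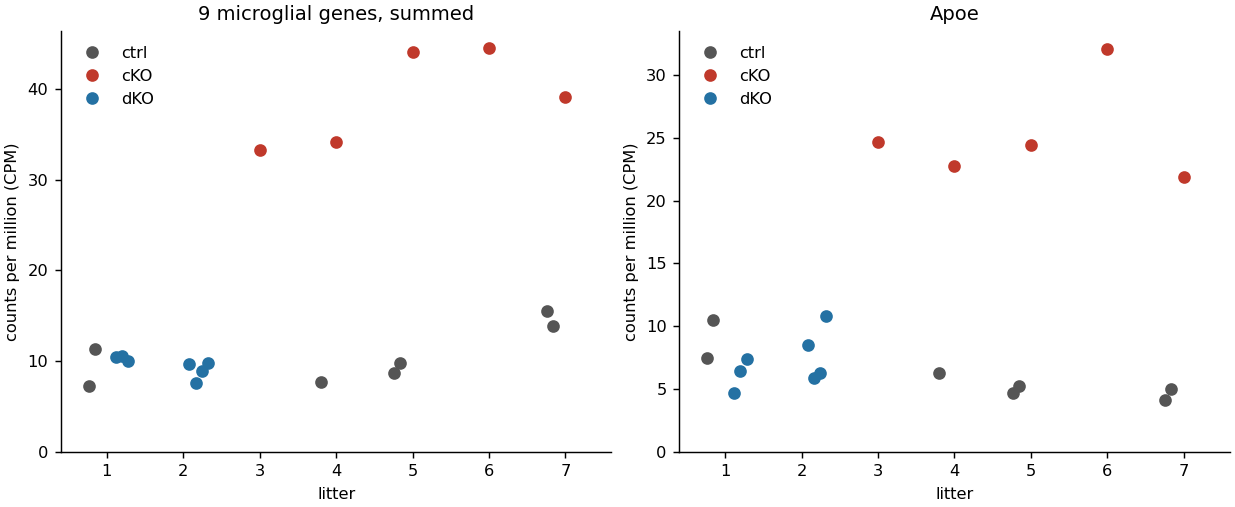
Dots are embryos, placed by litter on the horizontal axis and by CPM on the vertical axis, for the 9 microglial genes summed (left) and *Apoe* (right), with colour for genotype. The 5 cKO embryos, each of another litter, lie between 33.3 and 44.5 CPM on the left, above ctrl littermates in litters 4, 5 and 7, and the dKO embryos of litters 1 and 2 lie at 10.5 CPM or below.

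Whether these genes differ from ctrl when *Trp53* is deleted together with *Ino80* was asked by comparing dKO with ctrl, the same 7 ctrl embryos as above. No member was called. In the fit after filterByExpr, 2 members were tested, *Cx3cr1* with a log2 fold change of -0.13 (SE 0.31, 95% interval -0.75 to 0.48, adjusted p = 0.821) and *Apoe* with 0.09 (SE 0.22, -0.34 to 0.52, adjusted p = 0.833), by edgeR's quasi-likelihood test. Neither was called by edgeR's likelihood-ratio test or by DESeq2. Of all genes tested there, 0.246% were called upregulated and 2.34% downregulated, and neither member had an unadjusted p under 0.05, where 13.1% of all genes were higher and 16.5% lower. In the fit over genes with at least 1 count, 0 of 10 were called against 0.120% of all genes upward and 1.10% downward, 4 members lay above 0 and 6 below, and the members' median was -0.14. At an unadjusted p under 0.05, *Trem2*, with its 4 counts in dKO and none in ctrl, was higher (adjusted p = 0.212 by edgeR's quasi-likelihood test), where 7.29% of all genes were higher and 9.29% lower. Adjusted p-values of the others ran from 0.643 for *Csf1r* to 0.966 for *C1qa*.

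A p that misses the threshold does not show equal levels, and the intervals of the pooled ratios cover counting error only, not the spread between embryos. For the summed counts of the 9 genes, 240 in dKO and 211 in ctrl, the pooled ratio was 0.968 with a counting interval from 0.801 to 1.17. For *Apoe* it was 1.04 (0.825 to 1.30), for *Csf1r* 1.34 (0.802 to 2.29) and for the summed C1q chains 0.851 (0.469 to 1.54). These intervals lie below the ratios of cKO to ctrl of the same genes. For *C1qa*, with 4 counts in dKO and 3 in ctrl, the interval from 0.192 to 7.75 includes values as high as the lower part of the cKO interval, so a difference was not detectable at this depth. Litter 1 held both genotypes, with summed levels of 10.4, 10.5 and 9.95 CPM in dKO and 7.24 and 11.3 in ctrl. *Apoe* in that litter was at 4.71, 6.45 and 7.37 CPM in dKO and at 7.49 and 10.5 in ctrl, so there the dKO embryos were the lower ones. In sequencing batch 2 the ratio of dKO to ctrl for *Apoe* was 1.79, against 0.935 in batch 1.

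**Figure D3:**
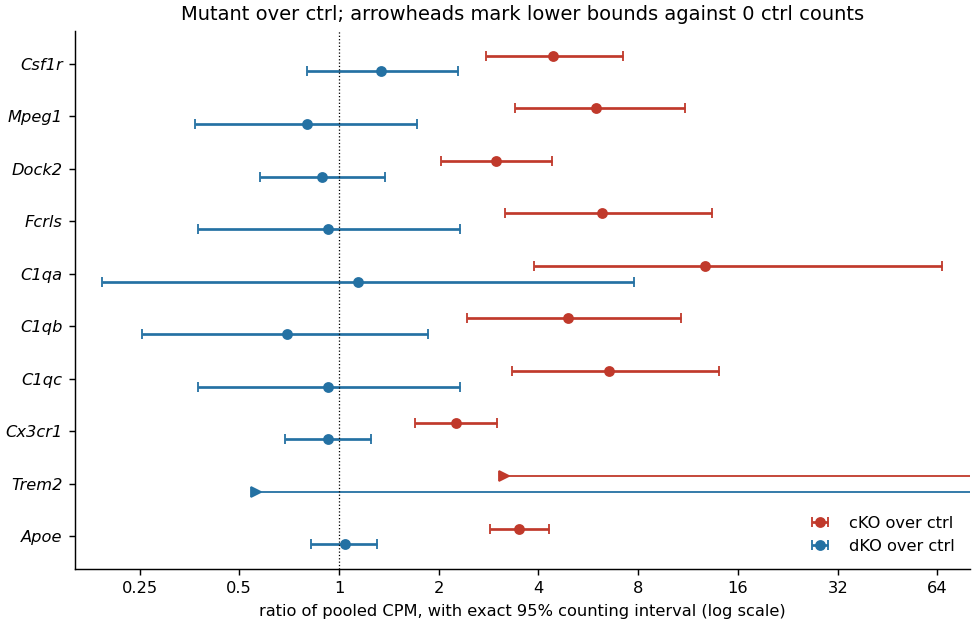
Ratio of pooled CPM in cKO (red) and dKO (blue) to ctrl for each gene on a log axis, with the exact 95% counting interval. All cKO intervals lie above 1, from 1.70 upward, all dKO intervals include 1, and for *Trem2*, which had no ctrl count, the arrowhead marks the lower end of an open interval (3.14 for cKO, 0.562 for dKO).

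Compared directly, dKO lay below cKO for every member. The mean summed level in dKO was 0.244 of that in cKO and that of *Apoe* was 0.284. Ratios of means ran from 0.0726 for *C1qa* to 0.373 for *Cx3cr1*, and all dKO embryos were below all cKO embryos for 9 of 10 members, where 2.32% of all genes with at least 1 count were separated downward. At a false discovery rate of 0.05, 4 of 4 members that filterByExpr kept were called lower, where 9.42% of all genes were, and 9 of 10 in the fit over genes with at least 1 count, where 5.17% were, with *Trem2* as the exception. The cKO libraries served to choose the members and are shared with the comparison to ctrl, so these counts are a description. No litter held both mutants.

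The makeup of the microglial counts was described by the share of each gene, with no test. *Cx3cr1* took 42.2% of the 211 pooled counts of the 9 genes in ctrl (exact 95% binomial interval 35.4 to 49.2), 25.5% of the 495 in cKO (21.7 to 29.5) and 40.4% of the 240 in dKO (34.2 to 46.9). By embryo, its share ranged from 17.9% to 55.9% in ctrl, from 23.3% to 30.6% in cKO and from 22.2% to 50% in dKO, so the embryos overlapped. *Mpeg1* took 7.58% in ctrl (4.40 to 12), 12.1% in cKO (9.38 to 15.3) and 6.25% in dKO (3.54 to 10.1). *C1qa* took 1.42% (0.294 to 4.10) in ctrl, 4.85% (3.13 to 7.13) in cKO and 1.67% (0.456 to 4.21) in dKO. Without *Cx3cr1*, the 8 remaining microglial members had a pooled ratio of cKO to ctrl of 4.82 (3.91 to 5.96) and of dKO to ctrl of 0.998 (0.778 to 1.28).

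**Figure D4:**
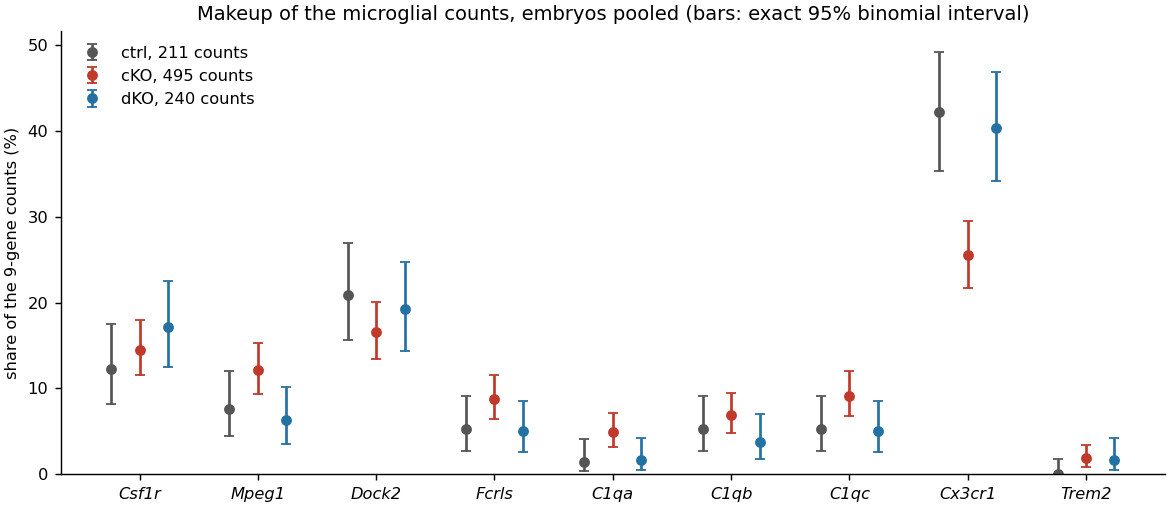
Share of each gene in the summed counts of the 9 microglial genes, in percent, with embryos of a genotype pooled and bars for the exact 95% binomial interval. *Cx3cr1* makes up 42.2% in ctrl and 40.4% in dKO but 25.5% in cKO, and the intervals of the other 8 genes overlap between ctrl and cKO.

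Other microglia and macrophage genes were followed as a list of 50 that holds no member, written with earlier results of these data known. Their summed level was between 64.9 and 75 CPM in ctrl, between 118 and 163 in cKO and between 57.5 and 83.1 in dKO. After filterByExpr, 8 were tested in cKO against ctrl, and 0 were called by edgeR's quasi-likelihood test at a false discovery rate of 0.001. At an unadjusted p under 0.05, 8 of 8 were higher, where 14.3% of all genes were, and the median log2 fold change was 0.76 beside 0.02 for all genes. The filter keeps some of these genes through their cKO counts, and in dKO against ctrl it kept 6 of the 50. Nothing is therefore read from this share. For *Lcp1*, an actin-bundling protein gene among those of highest level in the list, the log2 fold change was 0.51 (adjusted p = 0.0353).

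Over genes with at least 1 count, 48 of the 50 were tested in cKO against ctrl, 2 were called upregulated and 45 lay above 0, with a median of 1.22. Of all 26102 genes of that fit, 1.02% were called upregulated, 14381 lay above 0 and the median was 0.05. The called genes were *Laptm5*, a lysosomal membrane protein gene of blood cells, from 0.516 to 4.77 CPM (adjusted p = 5.28e-05), and *Cd33*, a sialic-acid receptor gene, from 0.558 to 3.19 CPM (adjusted p = 0.000283). In dKO against ctrl, 46 were tested, 0 were called, 22 lay above 0 and 24 below, and 3 of each had an unadjusted p under 0.05, where 0.120% of all genes were called upregulated and 7.29% and 9.29% had such a p upward and downward. *P2ry12*, an ADP receptor gene and a marker of resting microglia, was at 1.85 ± 1.49 CPM in 7 ctrl embryos (SD) and 1.28 ± 0.275 in 5 cKO embryos (SD) (log2 fold change -0.45, adjusted p = 0.665). *Tmem119*, another such marker, had 0 counts in every ctrl and dKO library and at most 1 in a cKO library. Both genes were named after their values had been seen.

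Macrophages of the brain's borders share many genes with microglia, and 13 genes that mark them or their yolk-sac precursors summed to 21.5 ± 6.66 CPM in 7 ctrl embryos (SD), 42.6 ± 7.43 in 5 cKO embryos (SD) and 25.5 ± 5.76 in 7 dKO embryos (SD). Of the 3 tested in cKO after filterByExpr, *Stab1*, a scavenger receptor gene, was called, from 2.67 ± 0.613 to 10.2 ± 2.64 CPM (log2 fold change 1.95, SE 0.23, adjusted p = 2.24e-05). The filter kept *Stab1* through its cKO counts and did not keep it in dKO against ctrl. The other genes tested were *Maf* (log2 fold change 0.77, adjusted p = 0.0811) and *Dab2* (0.27, adjusted p = 0.571). Of the markers of these cells, *Pf4*, *Cd163* and *Lyve1* were near 0 in every genotype, with means of at most 0.124, 0.0935 and 0.409 CPM. *F13a1* was at 1.00 ± 1.11 CPM in 7 ctrl embryos (SD), 2.40 ± 0.808 in 5 cKO embryos (SD) and 2.23 ± 1.31 in 7 dKO embryos (SD). *Mrc1*, their mannose receptor gene, was at 1.63 ± 1.53 CPM in 7 ctrl embryos (SD), 4.20 ± 1.82 in 5 cKO embryos (SD) and 1.57 ± 1.37 in 7 dKO embryos (SD) (adjusted p = 0.0224 for cKO against ctrl over genes with at least 1 count). Over genes with at least 1 count, 10 of 11 lay above 0 in cKO against ctrl, and 1, *Stab1*, was called, where 1.02% of all genes were. In dKO against ctrl, 0 of 12 were called, where 0.120% of all genes were upward, and 9 lay above 0. At an unadjusted p under 0.05, 3 were higher there (*F13a1*, *Lyve1* and *Stab1*), where 7.29% of all genes were. The part of border macrophages in the members' values was not tested.

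Genes that phagocytes raise when they digest what they have taken up were followed as a list of 23. Of the 16 tested in cKO against ctrl, 2 were upregulated, where 1.06% of all genes were. *Spp1*, which encodes the secreted protein osteopontin, went from 0 to 2 counts in a ctrl library to between 5 and 22 in a cKO library and had at most 2 in dKO (log2 fold change 4.32, SE 0.45, adjusted p = 5.48e-06). The filter kept *Spp1* through its cKO counts. *Lgmn*, a lysosomal protease gene, rose from 17.6 ± 2.55 to 29.1 ± 2.55 CPM (log2 fold change 0.67, SE 0.11, adjusted p = 0.000473). The cathepsin genes *Ctsb* (0.68, adjusted p = 0.00122) and *Ctsd* (1.31, adjusted p = 0.00101) missed the threshold. In the fit over genes with at least 1 count they passed it, together with *Gpnmb* (log2 fold change 4.69, adjusted p = 3.53e-05) and *Igf1* (3.89, adjusted p = 7.19e-06). There 6 of 23 were called upregulated, where 1.02% of all genes were. In dKO against ctrl, 0 of 15 were called by the quasi-likelihood test, where 0.246% of all genes were upward and 2.34% downward. At an unadjusted p under 0.05, 1, the lipase gene *Lpl*, was lower, where 16.5% of all genes were.

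Receptors and adaptors for the uptake of dying cells are also made by neural progenitors, and 23 such genes were followed. Of the 21 tested in cKO against ctrl by edgeR's quasi-likelihood test, 0 were upregulated. At an unadjusted p under 0.05, 5 of them were higher and 4 lower, where 14.3% and 15.5% of all genes were. Of these genes 1, *Dock1*, was downregulated, where 2.32% of all genes were, from 263 ± 31.7 to 174 ± 22.8 CPM (log2 fold change -0.59, adjusted p = 0.000439). *Dock1*, a RAC activator of the same family as *Dock2*, was also lower in dKO, at 188 ± 13.8 CPM (log2 fold change -0.49, adjusted p = 0.000171). *Dock2* and *Dock1* thus lay in opposite directions in cKO. *Itgb5*, an integrin subunit gene, was at 3.19 CPM in ctrl and 8.29 in cKO (1.42, adjusted p = 0.00639), and was called lower in dKO than in cKO (-1.12, adjusted p = 0.00176). *Axl*, a receptor for phosphatidylserine bridging proteins, was at 34.4 CPM in ctrl and 26.5 in cKO (-0.37, adjusted p = 0.0273), and was called higher in dKO than in cKO (0.44, adjusted p = 0.00647), where 5.59% of all genes were.

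Among the ligands and partners of the member receptors, 0 of 7 tested after filterByExpr were called in cKO by edgeR's quasi-likelihood test, and 2 were higher at an unadjusted p under 0.05, where 14.3% of all genes were. The log2 fold change of *Csf1*, a ligand of CSF1R, was 0.35 (SE 0.28, adjusted p = 0.437), and *Il34*, the other ligand, had at most 4 counts in a library. *Cx3cl1*, the ligand of CX3CR1, was at 1.38 ± 0.661 CPM in 7 ctrl embryos (SD) and 2.31 ± 0.475 in 5 cKO embryos (SD) (adjusted p = 0.442 over genes with at least 1 count). *Adam10*, a protease that releases fractalkine from membranes, did not pass the test (-0.05, SE 0.06, adjusted p = 0.636). Of 6 complement genes other than C1q tested in cKO, 0 were called by edgeR, and at an unadjusted p under 0.05 there was 1 in each direction, where 14.3% of all genes were higher and 15.5% lower. *C3ar1*, the receptor of a *C3* fragment, had 0.359 ± 0.268 CPM in ctrl, 2.55 ± 0.610 in cKO and 0.143 ± 0.186 in dKO. It was called lower in dKO than in cKO (log2 fold change -3.63, adjusted p = 1.08e-05) in the fit over genes with at least 1 count, where 5.17% of all genes were. *Csmd3* was at 163 ± 36.6 CPM in ctrl, 250 ± 51.8 in cKO and 100 ± 12.2 in dKO. In dKO against ctrl it was the 1 called of 6 tested, downward (-0.73, adjusted p = 0.000490 by the quasi-likelihood test), where 2.34% of all genes were. In cKO it was called upregulated only over genes with at least 1 count (adjusted p = 0.000157), where 1.02% were.

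Of 17 genes for the handling of APOE lipoproteins, 12 were tested in cKO after filterByExpr, 1 was upregulated and 1 downregulated, where 1.06% and 2.32% of all genes were. *Abca1*, which encodes the pump that loads lipid onto APOE, was upregulated, with 29.1 ± 7.05 CPM in 7 ctrl embryos (SD) and 67.5 ± 9.79 in 5 cKO embryos (SD) (log2 fold change 1.19, SE 0.14, adjusted p = 2.05e-05). In dKO *Abca1* was at 45.4 ± 8.5 CPM (SD, n = 7) and did not pass the threshold (0.56, SE 0.15, adjusted p = 0.0156). *Srebf2*, a regulator of cholesterol synthesis, fell from 205 to 155 CPM in cKO (log2 fold change -0.40, adjusted p = 0.000282). *Apoc1*, a neighbour of *Apoe* in the genome, had 0 counts in all ctrl and dKO libraries and at most 3 in a cKO library.

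Because radial glia also make *Apoe*, their markers were set beside it. Their 14 genes summed to between 0.965 and 1.05 of the ctrl mean in ctrl embryos, 0.769 to 0.989 in cKO and 0.835 to 0.996 in dKO, beside *Apoe* in cKO, which was 3.55 to 5.20 of the ctrl mean in the 5 embryos. Of the 13 tested in cKO, 10 lay below 0 and 3 above, with a median log2 fold change of -0.21 beside 0.02 for all genes. At an unadjusted p under 0.05, 5 were lower and 1 higher, where 15.5% and 14.3% of all genes were. *Fabp7*, a lipid-binding protein gene of radial glia, was the upregulated one, from 63.2 to 94.5 CPM (log2 fold change 0.56, adjusted p = 0.000182), and *Aldoc* fell from 37.9 to 22.8 CPM (-0.76, adjusted p = 4.98e-05). Of all genes tested in cKO, 1.06% were called upregulated and 2.32% downregulated. No endothelial, pericyte or red blood cell marker was called against ctrl in either mutant by edgeR's quasi-likelihood test. In dKO, 0.246% of all genes were called upward and 2.34% downward. In cKO, 8, 5 and 3 markers were tested. At an unadjusted p under 0.05, 1 endothelial gene was lower and 1 pericyte gene higher, where 15.5% and 14.3% of all genes were. In dKO, 2 of 4 pericyte and 1 of 8 endothelial genes were higher at such a p, where 13.1% of all genes were. The summed endothelial level relative to the ctrl mean was 0.899 to 1.20 in cKO, and the summed red blood cell level 0.90 to 1.38. The summed pericyte level was 0.878 to 1.18 in ctrl, 0.972 to 1.10 in cKO and 1.09 to 1.41 in dKO. Its part in the *Apoe* values was not tested. Of 14 markers of other leukocytes, 8 were listed at 0 in all libraries, and their sum was at most 0.365 CPM in a cKO embryo. The tubulin gene *Tubb3*, abundant in this tissue, was also listed at 0 in every library, so a 0 in all libraries is not read as absence. Markers of meningeal fibroblasts summed to between 7.38 and 70.0 CPM in ctrl, 12.4 and 14.2 in cKO and 7.43 and 74.6 in dKO, and their part in the members' values was not tested.

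**Figure D5:**
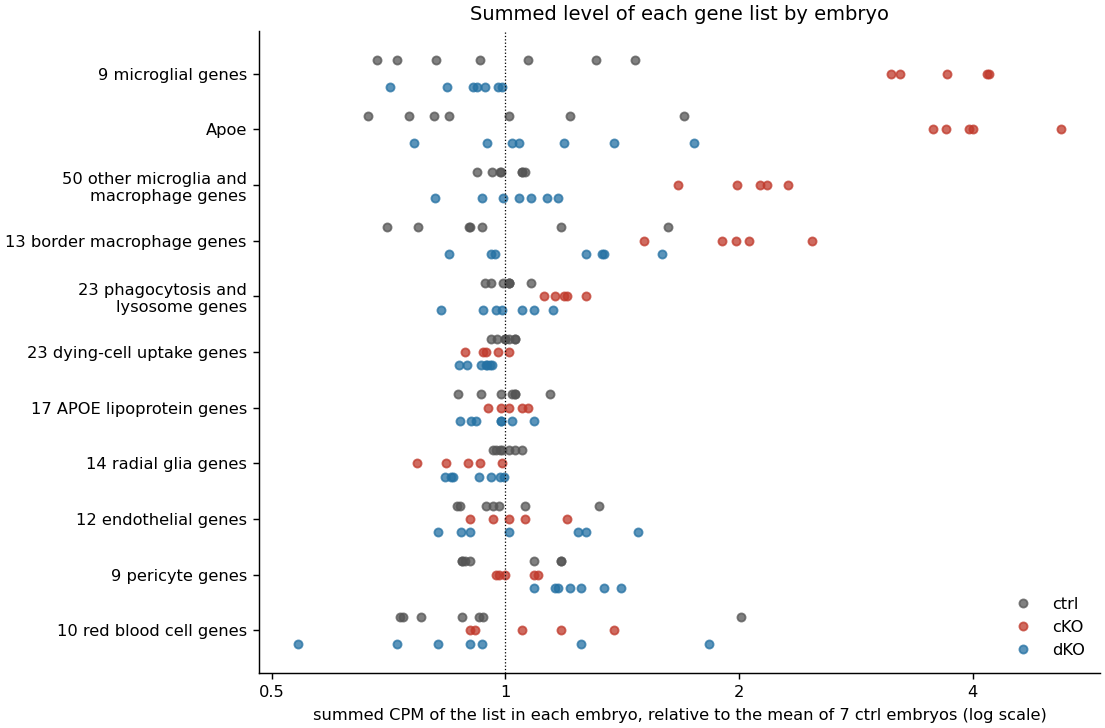
Summed CPM of each gene list in each embryo, divided by the mean of the 7 ctrl embryos, on a log axis, with colour for genotype and a dotted line at 1. The cKO dots stand apart from ctrl for the 9 microglial genes (3.14 to 4.20), *Apoe* (3.55 to 5.20) and the 50 other microglia and macrophage genes (1.67 to 2.31), and by less for the phagocytosis and lysosome genes (1.12 to 1.27 against 0.940 to 1.08). For radial glia 4 of the 5 cKO dots lie below the lowest ctrl dot (0.965), and the lowest is at 0.769.

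Genes whose pattern was most like that of the members were taken from 12043 genes with enough counts, by Pearson correlation of log2(CPM + 1) over the 19 libraries. For the summed microglial level these were *Cntn5* (r = 0.97), *Galntl6* (0.95), *Spp1* (0.95), *Pmaip1* (0.94), *Gm13067* (0.94) and *Trp53cor1* (0.94). For *Apoe* they were *Pmaip1* (0.91), *Gm13067* (0.91), *Slc9a9* (0.90), *Cntn5* (0.90), *Sorcs2* (0.90) and *Ptch1* (0.88). *Apoe* and the summed level themselves had r = 0.87 over 19 libraries. The libraries share genotype, so these values mostly restate the gap between cKO and the rest. After each genotype's mean was subtracted, r between *Apoe* and the summed level was -0.13 over the same 19 libraries.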

How the data were processed

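RNA of E13.5 cortex was measured in 19 libraries. The authors deposited counts of deduplicated reads per gene, without normalization, after ribosomal RNA depletion, Click-seq with a molecular tag on each cDNA, adapter trimming, alignment to mm10 with STAR 2.5.2a, deduplication with UMI-tools 0.5.3 and counting with HTSeq 0.6.1p1, the versions being those of the submitters' processing notes. Because duplicates were removed by tag, a count stands for 1 tagged molecule. Between 23.3% and 31.8% of the reads were on the 5 rows that name no gene and were left out. Symbols were taken from GENCODE M21 (GRCm38), in which 51719 of 51912 identifiers were found.

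Embryos were grouped by the labelled genotype. Each pair of groups was fitted alone with edgeR 4.0.16 in R 4.3.3, with filterByExpr at a minimum count of 10, TMM factors, the quasi-likelihood test and Benjamini-Hochberg adjustment over all genes tested. Genes were called at a false discovery rate of 0.001 against ctrl and of 0.05 between mutants. A second fit took all genes with at least 1 count. The tests were checked on simulated data, in which every changed gene had an expected count above 10 in a library of median depth. That check does not cover counts as low as those of most members. Ratios of pooled counts have exact 95% intervals from SciPy, which cover counting error only, and 3 counts were taken as the limit of detection. Depth ranged from 820915 to 8095810 counts, so the members' values rest on few molecules. Alternatives included DESeq2 1.42.0, other filters and factors, batch, sex and litter, single batches and each embryo left out.

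The members and gene lists were chosen with earlier results of these data known. Named genes are the members, called genes of each list, the 3 of highest level in a list and the 6 most similar in pattern, and not all that the rule covers are given. *Spi1*, *P2ry12*, *Tmem119*, *Tubb3*, *Pf4*, *Cd163*, *Lyve1*, *F13a1*, *Mrc1*, *Lpl*, *Csf1*, *Il34*, *Cx3cl1* and *Apoc1* were named outside this rule. Protein sequences and promoters of *Csf1r* and *C1qa* were not used here. Some results are not reported here.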

Additional observations from a re-analysis of the deposited data

Results flagged for a closer look

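Among 32 groups of embryos tested for an extreme value, 2 stood out, where chance gives about 1 in 20. *C1qb* in dKO embryo E was at 2.51 CPM, with the next embryo at 0.743, and the gap was 0.704 of the group's range. This value rests on 3 counts in the only library of sequencing batch 3. *Apoe* in cKO embryo D was at 32.1 CPM, with the next embryo at 24.7, and the gap was 0.726 of the range. It rests on 26 counts in the shallowest library. Without that embryo, the ratio of the *Apoe* means in cKO and ctrl was 3.80 in place of 4.08. Explanations were not tested.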

How the results depend on the processing

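In cKO against ctrl, 4 members were called. The count was 0 among genes with at least 10 counts in every library, where no member was left to test, 2 with litter as a block (*Apoe* and *Csf1r*), 2 in sequencing batch 1 alone and 0 of 3 tested in batch 2 alone, both with fewer embryos. With each embryo left out it ran from 2 to 4. The letters of the labels, used as a replicate block, gave 2 (*Apoe* and *Mpeg1*). Same-lettered embryos did not deviate together (correlations between -0.37 and 0.14 over the 3 comparisons, not all over 0.1), so the letters were not taken to pair them. In dKO against ctrl the count was 0 in each alternative run, leave-one-out included, but most of them tested 2 of the 10 members, *Cx3cr1* and *Apoe*, and the strict filter left none to test. In dKO against cKO, 4 were called, 9 over genes with at least 1 count, 0 under the strict filter, 1 in batch 2 alone, and 4 to 5 with each embryo left out. A litter block could not be fitted there, because no litter held both mutants.

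The ratio of summed means of dKO to ctrl, 0.899, was 1.16 in batch 1, 1.04 in females and 1.11 in litter 1, and that of *Apoe*, 1.16, was 0.935, 0.967 and 0.685 in the same settings and 1.79 in batch 2. The direction of dKO against ctrl thus changed with the setting, and the cause was not tested. The summed ratio of dKO to cKO, 0.244, was 0.198 without *Cx3cr1* and 0.296 by the mean of logs. With each embryo left out, the summed ratios ran from 3.50 to 4.00 (cKO to ctrl), 0.853 to 0.974 (dKO to ctrl) and 0.235 to 0.253 (dKO to cKO), and those of *Apoe* from 3.80 to 4.62, 1.06 to 1.31 and 0.259 to 0.304. By Spearman's rho, 0 of the 6 most similar genes were shared with those by Pearson's r, for the sum and for *Apoe* alike. Low depth limits all single-gene values, with 0 to 31 counts per library for any microglial member.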
